A study of Mus musculus with 2 samples.

Results

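The Mir302/Mir367 cluster of the mouse comprises 5 miRNA genes, Mir302b, Mir302c, Mir302a, Mir302d and Mir367. Its members were the rows of both deposited tables whose gene identifier carries those symbols in GENCODE M21, and all 5 were found among the 1973 miRNA loci of the tables. The libraries were microRNA-seq of total RNA from midbrain of B6NCrl embryos at day 14.5, with RNA below 30 nt as the size range on the labels. The series held 1 group of 2 biological replicates. The labels call each sample the midbrain of a single pup, collected on separate days, yet also give the sex as pooled and a shared donor identifier, so the spread between the samples may be partly technical. No other tissue, stage or genotype is analysed here, so that levels of this cluster are described here without a contrast between conditions.

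A miRNA is cut from a hairpin in a longer transcript, and bases 2 to 8 of the mature strand, the seed, pair with target messenger RNAs. The genes of the Mir302/Mir367 cluster are made from a common primary transcript that is a mark of embryonic stem cells and of the early embryo, where pluripotency factors such as Oct4 and Sox2 switch it on. The miR-302 strands are known to speed the cell cycle of stem cells and, in the mouse embryo, to hold back neural differentiation while the neural tube closes. Whether and how strongly these loci are still read in a midbrain at day 14.5 is the question that the libraries can answer for this cluster.

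The 5 hairpins lie on the plus strand of chromosome 3 within 580 nt, at chr3:127545228-127545807 of mouse assembly mm10 (GRCm38). The protein-coding gene Larp7, whose product binds the 7SK RNA, covers them on the minus strand. In its principal transcript, of 13 exons, they sit in intron 8, which is 1547 nt long, and the end of the Mir367 hairpin is 18 nt from the nearest Larp7 exon. Gaps of 61, 65, 59 and 43 nt separate the hairpins in the order of transcription. No other miRNA gene of GENCODE M21 lies within 50 kb. In the tables Mir302b is ENSMUSG00000076252.1, Mir302c ENSMUSG00000065482.1, Mir302a ENSMUSG00000065552.1, Mir302d ENSMUSG00000065447.1 and Mir367 ENSMUSG00000065413.2.

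The hairpins are shown from RefSeq (GRCm38.p6), 5′ to 3′ and in the order of transcription, because all the reads counted here fall on them. Capitals mark the longest stretch found in all 4 miR-302 hairpins, 16 nt that begin with the miR-302 seed, and, in Mir367, the seed of its 3p strand.
Mir302b, chr3:127545228-127545301: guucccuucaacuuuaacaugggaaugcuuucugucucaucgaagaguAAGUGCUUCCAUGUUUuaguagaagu
Mir302c, chr3:127545363-127545430: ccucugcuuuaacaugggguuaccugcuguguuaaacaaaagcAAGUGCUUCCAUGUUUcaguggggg
Mir302a, chr3:127545496-127545564: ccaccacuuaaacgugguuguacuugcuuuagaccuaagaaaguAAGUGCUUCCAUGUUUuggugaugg
Mir302d, chr3:127545624-127545689: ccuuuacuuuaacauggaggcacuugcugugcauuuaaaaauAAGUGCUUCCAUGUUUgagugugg
Mir367, chr3:127545733-127545807: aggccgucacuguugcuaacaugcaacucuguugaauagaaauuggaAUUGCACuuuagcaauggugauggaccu

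The mature 3p strands of the RefSeq table show which seed each product carries, given here in capitals. The table lists miR-302a-5p for Mir302a, and the Mir302a hairpin holds the stretch AAGUGCU from base 45 on.
miR-302b-3p: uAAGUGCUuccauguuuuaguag
miR-302d-3p: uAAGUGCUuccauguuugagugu
miR-302c-3p: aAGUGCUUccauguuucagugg
miR-367-3p: aAUUGCACuuuagcaaugguga
The listed strand of miR-302c begins a base further along the shared stretch, so that its bases 2 to 8 read AGUGCUU in place of AAGUGCU. Among the loci of the count tables, 916 have a listed mature strand, and no other listed strand carries AGUGCUU. The 5p strands of Mir302b, Mir302c and Mir302d share the seed CUUUAAC, and that of Mir302a reads CUUAAAC. No listed strand of a locus outside the cluster carries either.

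A count table cannot tell the strands of a hairpin apart, and reads that fit several places were left unassigned. The longest stretch shared by Mir302a and Mir302b is 20 nt, and that of Mir302d with either of these is 17 nt. Mir302c shares 16 nt with each of the other miR-302 hairpins. Mir367 shares at most 9 nt with any of the others, and at most 11 nt with a miRNA hairpin outside the cluster. No hairpin outside the cluster and no other GENCODE M21 transcript holds 20 nt of any member on either strand. Counts of Mir302a and Mir302b could therefore miss short reads from their common stretch. Counts of all 4 miR-302 loci could miss still shorter reads from the 16 nt that they share. Neither loss was tested.

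Of the 5 loci 4 were detected, with at least 10 reads on the annotated strand in each library, against 20.1% of all loci. The level of a locus is given as CPM, its sense reads scaled to a library total of 1000000 sense reads at miRNA loci. Mir302a, the highest, had 3072 and 1807 reads in replicates 1 and 2, or 421 and 456 CPM, a mean level of 438 ± 24.7 CPM (SD, n = 2). It took place 137 of all loci in replicate 1 and place 131 in replicate 2. Both libraries thus put Mir302a in nearly the same place, above the median of 120.0 CPM over the 397 detected loci.

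Mir302d had 2642 and 1498 reads, or 362 and 378 CPM in replicates 1 and 2, a mean level of 369.7 ± 11.2 CPM. Mir302b, the first hairpin of the transcript, had 2044 and 1076 reads, or 279.9 and 271 CPM, a mean level of 276 ± 6.11 CPM. These levels stood close together between the libraries, with a coefficient of variation of 3.03% for Mir302d, 2.22% for Mir302b and 5.63% for Mir302a. The order of this spread depended on scaling. With the TMM-scaled totals used below, the SD was 5.99 CPM for Mir302d, 18.9 CPM for Mir302b and 4.28 CPM for Mir302a. The ranks by CPM were 148 and 149 for Mir302d, and 165 and 167 for Mir302b.

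Mir302c, whose listed 3p strand has the shifted seed, was the lowest of the 4 detected loci. It had 341 reads (46.7 CPM) in replicate 1 and 264 reads (66.6 CPM) in replicate 2, a mean level of 56.6 ± 14.0 CPM at places 248 and 227. It is the only detected member below the median of detected loci, and its coefficient of variation of 24.8% is the highest of these 4 loci.

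Mir367, the last hairpin of the transcript, had no sense read in replicate 1 and 1 read in replicate 2. The count of 0 in replicate 1 was set against 0.411 CPM, the level of 3 reads. Its exact Poisson 95% upper limit was 0.505 CPM. In replicate 2 the single read equals 0.252 CPM (exact Poisson 95% interval 0.00638 to 1.40). Neither library held a read on the opposite strand of any of the 5 loci, that is, on the strand of Larp7. Such intervals and limits cover counting error only, since reads copied by PCR are not separate molecules.

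**Figure D1:**
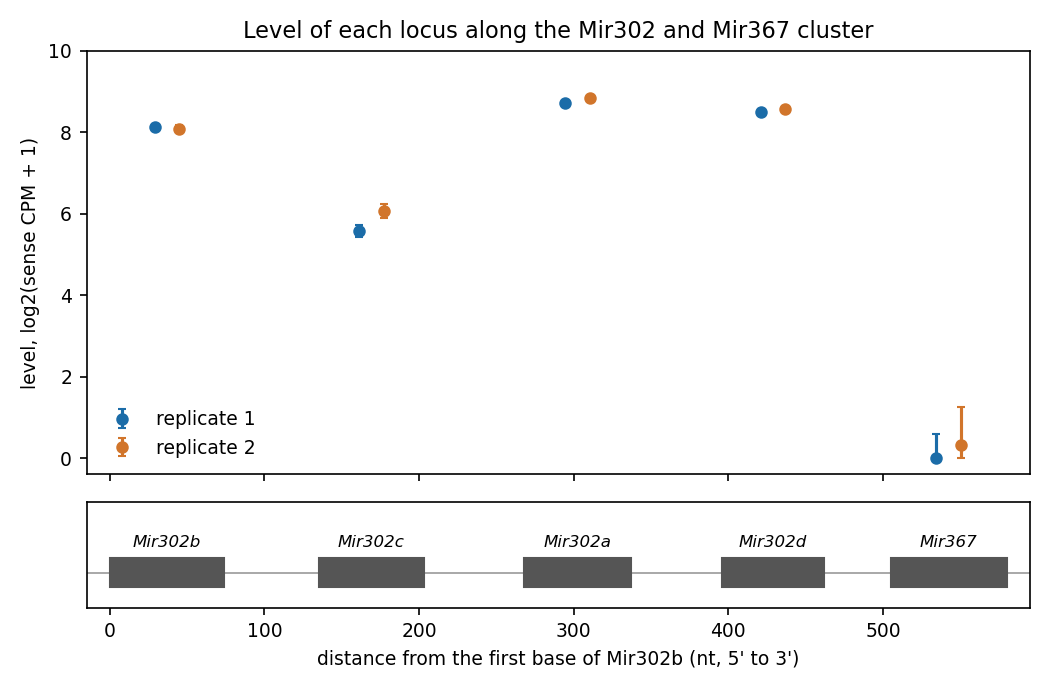
The upper panel plots the level of each locus in log2(sense CPM + 1) for replicates 1 and 2, with exact Poisson 95% intervals, and the lower panel the hairpins to scale against the distance from the start of Mir302b. The highest locus, Mir302a, and the near-empty Mir367 lie within the same 580 nt, and Mir302c lies below both hairpins beside it.

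Along the transcript the mean levels ran 276, 56.6, 438 and 369.7 CPM for Mir302b, Mir302c, Mir302a and Mir302d, so that level did not follow position. The order of levels, Mir302a, Mir302d, Mir302b, Mir302c and Mir367, was the same in both libraries. Mir302a exceeded Mir302d 1.16-fold in replicate 1 and 1.21-fold in replicate 2, a log2 ratio of levels of 0.24 ± 0.0375 (SD, n = 2). Mir302d exceeded Mir302b 1.29-fold and 1.39-fold, a log2 ratio of 0.42 ± 0.0757. Each of these neighbours differed in reads by more than the SD of its ratio over the replicates. That SD leaves out any bias of library making that is tied to sequence and repeats in both libraries. Such a bias was not tested, here or for the larger steps below. The smallest two-sided p that an exact permutation of 2 pairs can give is 0.5, so no test was made.

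The larger steps were those to Mir302c and to Mir367. Mir302b exceeded Mir302c 5.99-fold in replicate 1 (exact 95% interval 5.34 to 6.74) and 4.08-fold in replicate 2 (3.56 to 4.68). Mir302a exceeded Mir302c 9.01-fold in replicate 1 and 6.84-fold in replicate 2, a log2 ratio of levels of 2.97 ± 0.280. Set against a level of 3 reads for Mir367 in replicate 1, Mir302c was 114-fold higher and Mir302a 1024-fold higher. The exact 95% lower limits of these ratios, from the count of 0, were 91.9 and 832. In replicate 2, where Mir367 had 1 read, Mir302c stood 264-fold higher (exact 95% interval 47.0 to 10466) and Mir302a 1807-fold higher (324 to 71412).

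These comparisons use CPM without division by length, because reads below 30 nt come from mature strands, listed here at 21 to 23 nt. The hairpins measure 66 to 75 nt, and division by hairpin length left the order of the detected loci as it was, with a log2 ratio of 0.18 for Mir302a over Mir302d and of 0.59 for Mir302d over Mir302b. For the predicted fold of Mir367, RNAfold gave a minimum free energy of -34.5 kcal/mol, with -31.7 for Mir302a, -28.6 for Mir302c, -27.5 for Mir302d and -23.3 for Mir302b. The median over 342 detected loci with a RefSeq hairpin was -36.5 kcal/mol, and 58.2% of them had a lower value than Mir367. Per nt of hairpin, Mir367 stood at -0.460 kcal/mol, Mir302a at -0.459 and the median of these loci at -0.434. A predicted fold says nothing about how the hairpin is cut in cells.

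As a share of the 8099 and 4646 reads of the cluster in replicates 1 and 2, Mir302a made up 37.9% and 38.9%, Mir302d 32.6% and 32.2%, and Mir302b 25.2% and 23.2%. Mir302c made up 4.21% in replicate 1, with an exact Clopper-Pearson 95% interval of 3.78 to 4.67, against 5.68% in replicate 2, with an interval of 5.03 to 6.39. Mir367 made up 0% in replicate 1, where 3 reads would be 0.0370% and the exact 95% upper limit was 0.0455%. In replicate 2 it made up 0.0215% (0.000545 to 0.120). The intervals of Mir302a and Mir302d overlapped between the libraries, and those of Mir302c did not.

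**Figure D2:**
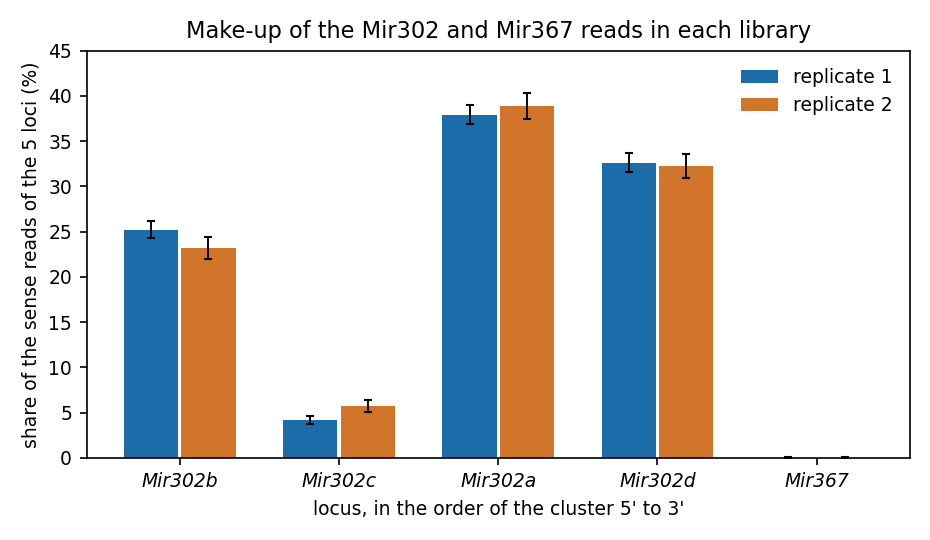
Bars give the share of each locus in the sense reads of the 5 loci, in percent, for replicates 1 and 2, with exact Clopper-Pearson 95% intervals. Mir302a, Mir302d and Mir302b hold nearly all reads in both libraries, Mir302c holds 4.21% and 5.68%, and no bar is visible for Mir367.

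Together the 5 loci took 0.111% of the sense reads in replicate 1, with an exact Clopper-Pearson 95% interval of 0.109 to 0.113, and 0.117% of those in replicate 2, with an interval of 0.114 to 0.121. The summed level was 1140.2 ± 44.0 CPM (SD, n = 2). As a single locus this sum would rank in place 84. Mir99a, the most abundant locus of the libraries, had 215113 and 213495 CPM.

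The libraries were then set against each other at all 397 detected loci with an exact two-sided binomial test on TMM-scaled totals, which takes account of counting error alone and speaks of these 2 libraries. Benjamini-Hochberg adjustment ran over all 397 loci, of which 53.9% passed, 23.9% as higher and 30% as lower in replicate 2. Of the 4 detected members 2 passed, a share like that of the background. Mir302c had a log2 ratio of replicate 2 over replicate 1 of 0.42 (exact binomial test, adjusted p = 0.00122), and Mir302b of -0.14 (adjusted p = 0.0194). Mir302a stood at 0.02 (adjusted p = 0.732) and Mir302d at -0.03 (adjusted p = 0.596).

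The calls depended on how error and scale were treated. The exactTest of edgeR was run at the common dispersion estimated from these libraries, a biological coefficient of variation of 0.219. With it 0 of the 4 members passed, against 1.26% of all detected loci, and 0 had an unadjusted p under 0.05. That dispersion came from the difference between the same 2 libraries, so few loci could pass. The count of 0 therefore cannot decide whether members differed. With plain totals Mir302a passed instead of Mir302b, with an adjusted p of 0.0151 for Mir302a and of 0.510 for Mir302b in the exact binomial test. In size, 3.53% of the detected loci had a smaller absolute log2 ratio than Mir302a, and 73.0% had a smaller one than Mir302c. The median absolute log2 ratio over the 397 loci was 0.23.

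**Figure D3:**
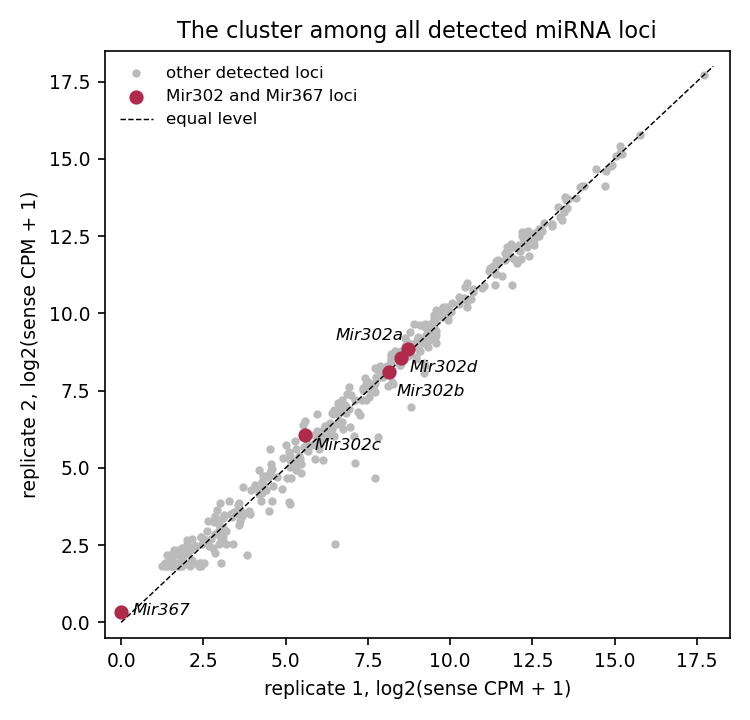
Each point is a miRNA locus, with its level in replicate 1 on the horizontal axis and in replicate 2 on the vertical axis, both in log2(sense CPM + 1); loci outside the cluster are shown where both libraries had at least 10 reads, and Mir367 is shown although it had fewer. The 4 miR-302 loci lie near the line of equal level and Mir367 lies near the origin, at 0 and 0.252 CPM.

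The summed levels of red cell loci and of mesenchyme loci differed between the libraries by a larger factor than that of the cluster. So did those of the vessel, neural and HOX-cluster loci given below, but not that of the epithelial loci. The 3 red cell loci summed to 486 and 153 CPM in replicates 1 and 2, led by Mir451a and lowest at Mir486 (9.86 and 10.8 CPM). The 4 loci of mesenchyme and meninges summed to 320.4 and 69.1 CPM, from Mir214 down to Mir199a-1, which had 0.274 and 0.252 CPM. Mir199a-1 shares sequence with Mir199a-2 and Mir199b, so the counts of these loci are uncertain. The Mir302/Mir367 sum was 1109 and 1171 CPM. The part of these cells in the level of the cluster was not tested.

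Neural miRNAs were looked at beside the tissue label. Of 12 such loci 10 were detected, against 20.1% of all loci, with a summed level of 38522 and 43316 CPM in replicates 1 and 2. With no other tissue to compare, these levels cannot tell midbrain from other brain regions. Mir149 was the highest of these neural loci at 17513 ± 704 CPM. Mir124a-3, which shares sequence with other loci, was the lowest by its mean, at 2.33 and 1.51 CPM in replicates 1 and 2. In replicate 2 Mir9-2, which also shares sequence with other loci, was lower, at 0.756 CPM. The 3 vessel loci summed to 32566 and 21781 CPM between Mir126a and Mir145a, and the 7 epithelial loci to 787 and 805 CPM between Mir203 and Mir200a. Of 5 HOX-cluster loci, which mark the axis behind the midbrain, 3 were detected, with a sum of 970.2 and 1351 CPM led by Mir10a. Mir196a-1 had no read, but it shares sequence with Mir196a-2, so its count is uncertain. In RNA of a whole tissue, fewer cells of a type and less RNA per cell cannot be told apart.

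The miR-290 cluster, from Mir290a to Mir295, is the other miRNA cluster known for pluripotent mouse cells, and some of its strands carry the miR-302 seed. Of the 12 loci of both clusters 6 were detected. The 4 miR-302 loci summed to 1109 and 1171 CPM in replicates 1 and 2, and the 7 loci of the miR-290 cluster to 28.3 and 20.2 CPM. The miR-302 loci were thus 39.1-fold higher in replicate 1 and 58.1-fold higher in replicate 2 (mean ratio 48.6 ± 13.4). All 4 miR-302 loci passed the detection minimum, and Mir293 and Mir294 did so in the miR-290 cluster.

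Within that cluster Mir293 had 78 and 42 reads in replicates 1 and 2, a mean of 10.6 ± 0.0658 CPM, and Mir294 70 and 19 reads, a mean of 7.19 ± 3.39 CPM. Mir292 had 44 and 6 reads, Mir291b 7 and 2, Mir291a 4 and 10, and Mir295 4 and 1, while Mir290a had none in either library. Mir291a and Mir291b share at least 20 nt, so their counts are uncertain. Each of these 7 loci was below Mir302c in both libraries.

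The listed strands that carry the miR-302 seed outside the cluster all come from the miR-290 cluster. They are shown with the seed in capitals to set them beside the miR-302 strands above.
miR-291a-3p: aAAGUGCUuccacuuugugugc
miR-294-3p: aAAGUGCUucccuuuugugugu
miR-295-3p: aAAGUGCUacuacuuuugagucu
Their loci summed to 10.7 and 7.56 CPM in replicates 1 and 2. Of the reads at these 3 loci and the 4 miR-302 loci together, the miR-302 loci held 99.0% in replicate 1 and 99.4% in replicate 2. That share counts Mir302a and Mir302c by their hairpins, since neither has a listed strand with this seed. Mir302b and Mir302d, which do, summed to 642 and 649 CPM.

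The miR-367 seed, AUUGCAC, is shared with miR-25, miR-32, miR-92 and miR-363, whose members lie beside miR-17 relatives in growth-associated clusters or stand alone. Of the loci with a listed strand of this seed, Mir367 was the only one not detected, and the other 6 were detected. Their sum was 7427 and 6454 CPM in replicates 1 and 2, led by Mir92b at 3674 ± 679 CPM and Mir92-1 at 1504 ± 113 CPM. Mir363 had 722 ± 45.9 CPM, Mir25 679.8 ± 125 CPM, Mir32 292 ± 31.3 CPM and Mir92-2 67.3 ± 7.84 CPM. Mir92-1 and Mir92-2 encode the same listed strand, so the split of reads between them is uncertain. Apart from the single Mir367 read, the reads at loci with this seed fell outside the cluster.
miR-92b-3p: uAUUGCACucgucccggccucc
miR-363-3p: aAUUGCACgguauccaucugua
miR-25-3p: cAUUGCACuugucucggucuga
miR-32-5p: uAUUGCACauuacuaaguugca
These strands are shown to set them beside miR-367-3p above; with their hairpins, as with every other one outside the cluster, Mir367 shares no more than 11 nt.

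The seed of the miR-17 group, AAAGUGC, holds the first 6 bases of the miR-302 seed shifted by a base, as miR-17-5p shows: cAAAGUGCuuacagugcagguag. This group of proliferation miRNAs had 7 loci with a listed strand of its seed, of which 6 were detected. Their sum was 67162 and 64844 CPM in replicates 1 and 2. Mir17, Mir93, Mir106b and Mir20a led it, from 29181 ± 1989 CPM for Mir17 to 10584 ± 988 CPM for Mir20a, and Mir106a and Mir20b had 561 ± 115 and 429 ± 92.7 CPM. The mean level of Mir20b lay between those of Mir302a and Mir302d, and its distance from either was smaller than its SD. The 4 miR-302 loci together amounted to 1.65% of the miR-17 sum in replicate 1 and 1.81% in replicate 2.

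**Figure D4:**
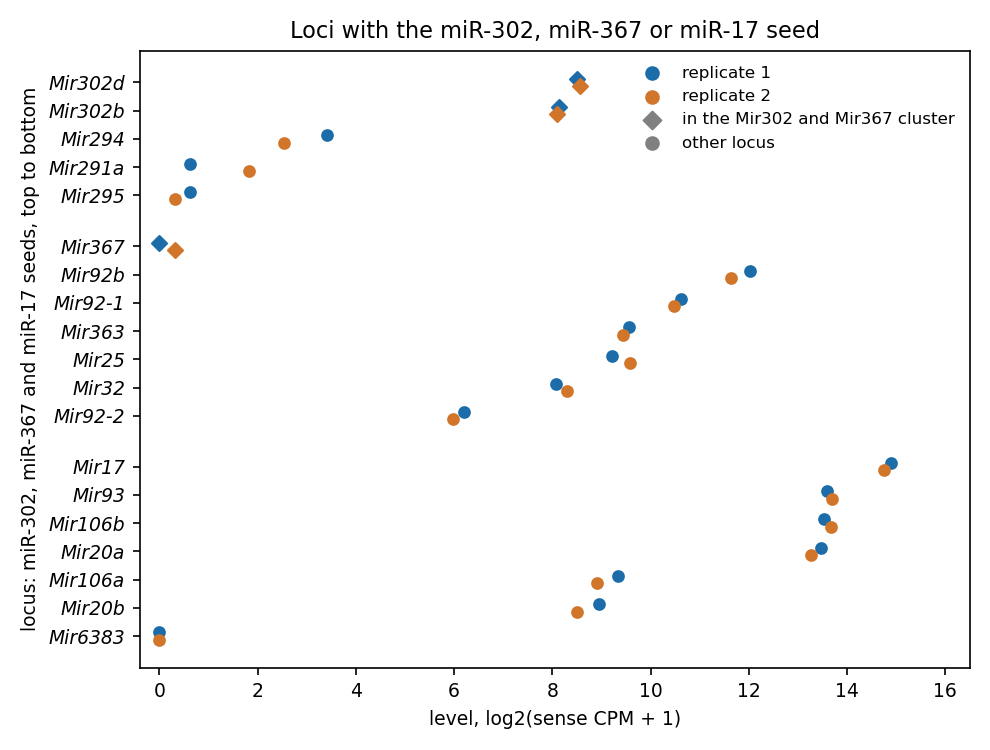
Points give the level of each locus in log2(sense CPM + 1) in replicates 1 and 2, for loci whose listed strand carries the miR-302 seed (top), the miR-367 seed (middle) or the miR-17 seed (bottom); diamonds mark loci of the Mir302/Mir367 cluster. Mir302d and Mir302b lie above the miR-290 loci of the same seed, and Mir367 lies below all 6 other loci of its seed.

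The 3 loci whose pair of levels lay closest to that of Mir302a were Mir135a-1 with 436 and 459 CPM in replicates 1 and 2, Mir3071 with 393 and 487 CPM, and Mir328 with 384 and 417 CPM. Likeness was the distance between the pairs of log2(CPM + 1) values, 0.05, 0.14 and 0.18, over 2 samples of 1 tissue, so it describes a like level and no more. Mir135a-1 shares sequence with a copy. For Mir367, 14 loci had the same pair of counts, among them Gm24368, Mir1936 and ENSMUSG00000099177.1, and 1307 of the 1973 loci (66.2%) had at most 1 read in each library.

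Unequal levels within a cluster were common in these libraries. Among clusters of miRNA genes on a strand with gaps of at most 10 kb, 60 had a detected locus, and 25 of these also held an undetected one. In 33 clusters the highest locus reached at least the level of Mir302a, counting the Mir302/Mir367 cluster itself. In 6 of them, again counting it, some locus had at most 1 read in each library, as Mir367 did. Among these 6 were a run of 107 loci, with 86 such loci, and Mir137 with the locus Gm24155. They are therefore not all like Mir367. Among the 8 clusters with at least 4 detected loci, the highest detected locus exceeded the lowest 7.74-fold in the Mir302/Mir367 cluster, the smallest such ratio. The other 7 had larger ratios, up to 8357-fold, but each of them also held more than 4 detected loci. A ratio of highest to lowest tends to grow with the number of loci, so these ratios are not on an equal footing. Loci under the detection minimum, and so Mir367, are left out of these ratios.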

How the data were processed

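The authors deposited 1 table of raw read counts per library, with reads per miRNA gene on both strands, on the annotated strand and on the opposite strand. Counting used assembly mm10 and annotation M4, per the text file beside each table; the aligner and counter were not given in the sources used here. Sense reads at miRNA loci totalled 7302633 in replicate 1 and 3966727 in replicate 2, so 1 read equalled 0.137 and 0.252 CPM. Read classes outside genes were left out of totals; reads mapping to several places made up 36.2% and 36.9% of all reads. GENCODE M21, also on mm10, gave symbols for 1894 of 1973 loci.

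CPM used the sense total per library, and log2 values were taken of CPM + 1. Mature strands and hairpins came from RefSeq tables on GRCm38.p6, folded with RNAfold 2.7.2. The miR-302 seed was read from miR-302b-3p in place of miR-302a-3p. TMM scaling and exactTest used edgeR 4.0.16, size factors DESeq2 1.42.0, and intervals and binomial tests scipy 1.17.1. The binomial test was tried on data simulated with counting error only, which cannot show how it behaves with wider spread. Named loci were the members, loci with the miR-302 or miR-367 seed, the miR-290 cluster loci, the 3 loci nearest in level to the highest and to the lowest member, miRNA genes within 50 kb, and the highest and lowest locus of each marker list (neural, early embryonic, red cell, vessel, mesenchyme and meninges, epithelium, HOX cluster). The miR-17 group and clusters of miRNA genes were described besides. Alternatives changed the total, the scaling, the strand, the read minimum, the pseudocount, the error model and the replicates used. The members and lists were chosen with earlier results of these data known.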

Additional observations from a re-analysis of the deposited data

How the results depend on the processing

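No paired analysis was possible because the series holds 1 group, whose replicate numbers have no partner in another. Detection of 4 of the 5 loci held at minimums of 3 and 100 reads and of 1 CPM, in either library and with each replicate left out. The level of the miR-302 seed below sums Mir302b, Mir302d, Mir291a, Mir294 and Mir295, whose listed strands carry it; with Mir302a counted by its hairpin the mean was 1093 CPM against 654 CPM. Without replicate 1 and without replicate 2 the summed level was 1171 and 1109 CPM, the share of the library 0.117% and 0.111%, the level of the miR-302 seed 656 and 652 CPM, the share of Mir302a 38.9% and 37.9%, the log2 ratio of Mir302a over Mir302c 2.77 and 3.17, and the rank of Mir302a 131 and 137. The choice of total set the scale: without Mir99a in it the sum was 1451 CPM (0.145%) and the miR-302 seed 833 CPM, and over all reads of the library 469.7 CPM (0.0470%) and 269.5 CPM. With both strands counted the miR-302 seed stood at 641 CPM and Mir302a at rank 144. The number of members that passed in the comparison of the libraries was 2 of 4 under TMM, DESeq2 size factors, plain totals, no filter and both strands. Of all loci tested, 53.9%, 53.9%, 54.7%, 28.8% and 54.4% passed under these settings, in that order. With edgeR's exactTest at the estimated dispersion, 0 members and 1.26% of the loci tested passed. That dispersion came from the same 2 libraries, so that few loci could pass. By construction the binomial test leaves out the spread that this dispersion adds. Plain totals moved the split over all detected loci to 127 higher and 90 lower in replicate 2, against 95 and 119 with TMM, and their median log2 ratio to 0.09. Division by hairpin length and the count with Mir302a were chosen after seeing the data. Depth limits Mir367, whose level can be bounded but not measured.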
